A study of Mus musculus with 8 samples.

Results

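The respiratory chain subunits were followed in mouse embryonic stem cells as 101 protein-coding genes, of 55421 genes in the count table. They were chosen by name: the subunits of complexes I to V by their symbol families (Ndufa, Ndufb, Ndufc, Ndufs, Ndufv, Uqcr, Cox4i to Cox8, Atp5, the mt- protein genes), together with Sdha, Sdhb, Sdhc, Sdhd, Cyc1 and Cycs. Of 114 symbols that matched, 13 were not protein coding and were left out. Nuclear DNA holds 88 of the members and the mitochondrial genome 13. By complex they number 45 in complex I, 4 in complex II, 10 in complex III, 21 in complex IV and 20 in complex V, with Cycs on its own.

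The respiratory chain passes electrons from NADH (complex I) and succinate (complex II) through complex III and cytochrome c to oxygen at complex IV, and complex V uses the proton gradient so built to make ATP. Most subunits are made in the cytosol from nuclear genes and imported, while the mitochondrial genome encodes the hydrophobic core of all complexes but complex II, from long transcripts that are cut into single RNAs. Mouse embryonic stem cells in serum and LIF use both glycolysis and respiration.

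The study sequenced the 3′ ends of polyadenylated RNA (QuantSeq, forward kit) from 8 cultures of E14 cells, an embryonic stem cell line of 129/Ola background, kept on gelatin in medium with serum and LIF, a factor that maintains pluripotency. Untreated wild-type cells (WT) and untreated cells with a knockout of the miR-290-295 microRNA cluster (KO) formed one set of libraries. The other set consisted of KO cells that received an siPOOL, a mixture of many small interfering RNAs, at 5 nM and were harvested 36 hours later; it was aimed either at the transcription factor Tfap4 (siTfap4) or at no gene (siNeg). Both siPOOL groups carry the knockout, so Tfap4 was lowered only in cells without the cluster. Each group had 2 biological duplicates, and the labels do not say whether these were separate clones. The titles of the untreated libraries carry further tags, of which WT replicate 1 and KO replicate 2 share one; what the tags mark is not given, and their part in the results was not tested. Each comparison was tested within its set. No test was made between the sets, where preparation and transfection cannot be told apart, and values given from both sets stand side by side only.

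Library totals ranged from 8326675 to 12726123 counts. The siTfap4 libraries had the lowest totals, at 8326675 and 8829051 counts. They also had the fewest genes with a count, 19271 and 19432, beside 20264 to 21183 in the other libraries. The part of depth in the results was not tested. Levels are given as counts per 1000000 counts of the library (CPM), scaled with TMM factors; a read marks a transcript's 3′ end, so CPM was not divided by length and levels of different genes were not ranked against each other beyond naming the member with the highest CPM of a complex. Tfap4 rose in KO cells (log2 fold change 1.33, SE 0.26, adjusted p = 0.00363) and fell with its siPOOL (-1.35, SE 0.27, adjusted p = 0.00365, edgeR's quasi-likelihood test with Benjamini-Hochberg adjustment), in the direction the siPOOL label gives. Of the marker lists, the 8 embryonic stem cell markers summed to 3246 to 3492 CPM in the WT, KO and siNeg libraries and to 2366 to 2505 CPM in the siTfap4 libraries. The 8 primitive endoderm markers summed to 162 to 173 CPM in WT and 23.3 to 25.3 CPM in KO, the 7 trophectoderm markers to 100.2 to 108 CPM in WT and 238 to 384 CPM in KO, and the 7 fibroblast markers to 33.2 to 53.3 CPM in WT and 10.3 to 20.4 CPM in KO, with Col3a1 at 0 in both libraries of every group. In the siPOOL set, primitive endoderm markers summed to 29.2 to 39.7 CPM in siNeg and 36.4 to 56.8 CPM in siTfap4, trophectoderm markers to 206 to 276 and 168 to 287 CPM, and fibroblast markers to 10.6 to 12.6 and 7.67 to 9.81 CPM. The part of these markers in the results was not tested.

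The mitochondrial members made up more counts than all nuclear members together. In the untreated set they took 4.70% and 4.68% of the counts of the WT libraries and 4.53% and 4.21% of the KO libraries. In the siPOOL set the shares were 5.02% and 3.85% for siNeg and 3.55% and 4.61% for siTfap4. The nuclear members took 2.09% and 2.12% (WT), 2.17% and 2.15% (KO), 1.78% and 2.404% (siNeg), and 1.88% and 2.22% (siTfap4). The WT and KO groups did not overlap in either sum, while the siNeg and siTfap4 groups overlapped in both. The mean share of the mitochondrial members was 4.69 ± 0.0131% in WT and 4.37 ± 0.223% in KO (SD, n = 2, exact two-sided permutation test p = 0.333, the smallest that 2 against 2 can give). It was 4.43 ± 0.830% in siNeg and 4.08 ± 0.747% in siTfap4 (SD, n = 2, exact permutation p = 0.667). For the nuclear members the means were 2.11 ± 0.0228% and 2.16 ± 0.0195% in WT and KO (SD, n = 2, exact permutation p = 0.333), and 2.09 ± 0.440% and 2.05 ± 0.243% in siNeg and siTfap4 (exact permutation p = 1). In bulk RNA, fewer cells of a kind and less RNA per cell cannot be told apart, for these sums or for any gene below.

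The duplicates of the siPOOL set lay further apart than those of the untreated set. Of the 86 nuclear members tested, siNeg replicate 2 was above replicate 1 in 75, with a median log2 difference of 0.61, and siTfap4 replicate 2 was above replicate 1 in 56, with a median of 0.24. In WT and KO the corresponding counts were 41 and 45, with medians of -0.02 and 0.01.

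Of the 101 members, 94 had enough counts to be tested: 86 nuclear and 8 mitochondrial. Cox8b, which encodes a heart and muscle form of a complex IV subunit, and a readthrough entry under the name Atp5o were the nuclear genes not tested. The 5 mitochondrial genes not tested were mt-Nd4l, mt-Co2, mt-Co3, mt-Atp6 and mt-Atp8. Their levels were at most 0.382 CPM, where 3 counts correspond to 0.229 to 0.382 CPM depending on the library. Of the last 200 bases of their transcripts, mt-Nd4l shares 98.2%, mt-Co2 100%, mt-Co3 99.4% and mt-Atp6 98.2% (as words of 31 bases) with other annotated genes, which include nuclear copies of mitochondrial DNA. How reads that fit several genes were counted is not given in the sources used here, so levels of these genes were not interpreted. Over 50% of the last 200 bases was shared by 13 members in all, and values for these are uncertain. Among them are Cox7c (100%), Atp5g2 (57.1%), mt-Co1 (100%), mt-Nd2 (60.6%) and mt-Nd3 (98.2%).

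**Figure D1:**
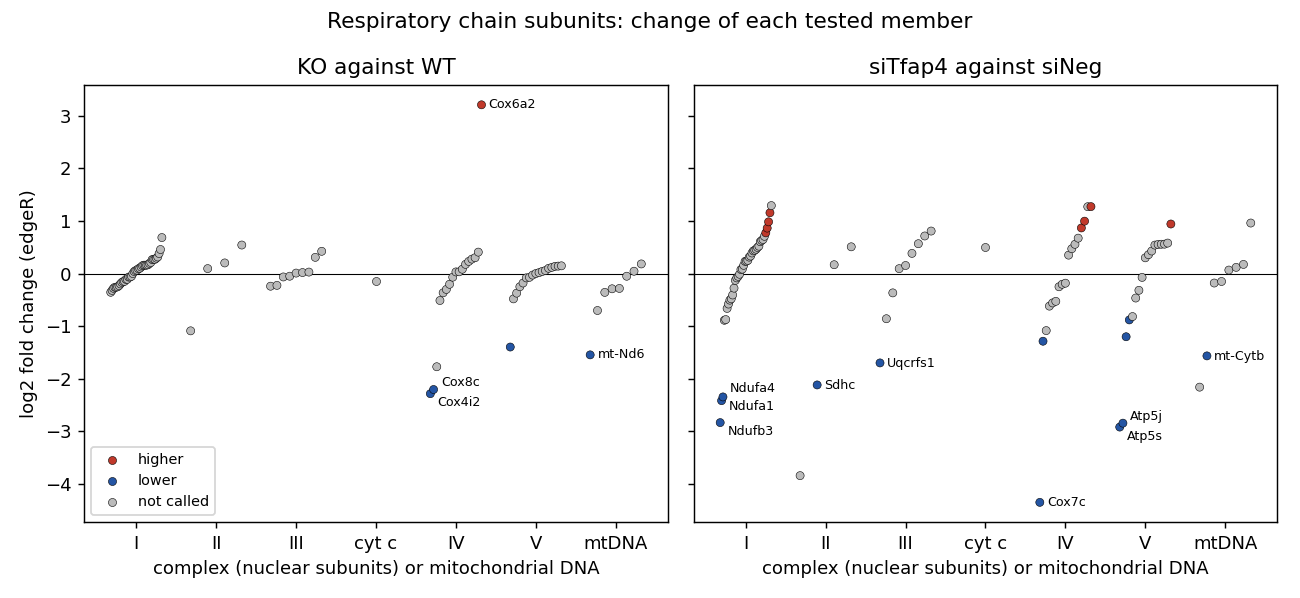
Log2 fold change (vertical axis) of each of the 94 tested subunits, in columns by complex for nuclear genes and in 1 column for mitochondrial genes, in KO against WT (left) and siTfap4 against siNeg (right); colours mark members called higher, called lower or not called at an adjusted p of 0.05. Most points on the left lie near 0, with 5 called, and 20 are called on the right, where the falls reach -4.35.

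Loss of the cluster was compared with WT. It left most respiratory chain transcripts near their WT level: 5 of 94 tested members (5.32%) were called at an adjusted p of 0.05, beside 9.95% of the 15137 genes tested. Cox6a2 rose, and Cox4i2, Cox8c, Atp5g2 and mt-Nd6 fell. The share called lower was 3.96% and the share called higher 5.99% over all genes. The median log2 fold change was 0.02 over nuclear members, -0.29 over mitochondrial members and -0.01 over all genes tested. With a correction for the GC content of the transcript ends, described below, the same number of members was called (1 higher, 4 lower), beside 10.4% of all genes (6.14% higher, 4.28% lower). In 58 of the 94 members the WT and KO values did not overlap, beside 57.5% of all genes.

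In complex I, 0 of 38 nuclear members were called by edgeR, with 1 at an unadjusted p under 0.05 and 0 called by DESeq2. Their log2 fold changes lay between -0.36 and 0.68. Ndufa2, an accessory subunit of the arm that oxidises NADH and the nuclear complex I member with the highest mean CPM, measured 298 and 250.4 CPM in WT and 317 and 344 CPM in KO. Its groups did not overlap, and the difference did not pass (log2 0.27, SE 0.27, adjusted p = 0.622).

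None of the 4 subunits of complex II was called by edgeR or by DESeq2, with 1 at an unadjusted p under 0.05. Sdhb, the iron-sulfur subunit, measured 214 and 227 CPM in WT and 224 and 246 CPM in KO, and the groups overlapped. Sdhd, a membrane anchor of the complex, measured 119 and 85.6 CPM in WT and 54.8 and 41.2 CPM in KO. Both KO values were below both WT values, but the difference did not pass in the fit over all 8 libraries (log2 -1.09, SE 0.63, adjusted p = 0.341). Fitted on the 4 libraries of the comparison alone, it did (adjusted p = 0.0117). In complex III 0 of 9 nuclear members were called by edgeR or DESeq2, and 0 were at an unadjusted p under 0.05. Uqcrq, a small subunit with the highest CPM among them, measured 436 and 462 CPM in WT and 582 and 620 CPM in KO (log2 0.42, SE 0.29, adjusted p = 0.427). Cycs, the electron carrier cytochrome c, measured 32.9 and 34.9 CPM in WT and 28.7 and 32.5 CPM in KO, below WT in both libraries, and did not pass (log2 -0.15, SE 0.25, adjusted p = 0.791).

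Complex IV held 3 of the 5 called members, out of its 17 tested nuclear subunits. All 3 encode forms of a subunit that are best known from particular adult tissues. All 3 were at or below 1.63 CPM in their lower group, where counts are few. Cox6a2, the heart and skeletal muscle form of subunit VIa (chr7:128205435-128206387, minus strand, GRCm38, within a locus that also carries Itgad on the other strand), measured 1.63 and 0.582 CPM in WT and 10.9 and 10.3 CPM in KO. Both KO libraries were above both WT libraries. The rise was 9.24-fold (log2 3.21, SE 0.48, adjusted p = 0.000458), and it passed under all 11 alternative settings. Without WT replicate 1, which leaves WT with 6 counts, its log2 fold change was 4.17, and without WT replicate 2 it was 2.70. Cox6a1, its widely expressed counterpart, measured 366 and 383 CPM in WT and 426 and 453 CPM in KO and did not pass (log2 0.23, SE 0.23, adjusted p = 0.610).

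Cox4i2, a form of subunit IV known from lung and from low oxygen, measured 3.09 and 4.85 CPM in WT and 0.306 and 1.32 CPM in KO. The groups did not overlap, and Cox4i2 fell (log2 -2.28, SE 0.55, adjusted p = 0.0141), although without KO replicate 1 or WT replicate 2 the call was lost (adjusted p up to 0.209), and without KO replicate 2 the log2 fold change was -3.63. Cox4i1, the widely expressed form, measured 539 and 533 CPM in WT and 698 and 598 CPM in KO (log2 0.27, SE 0.26, adjusted p = 0.591). Cox8c, a form of subunit VIII known from testis, measured 2.68 and 2.91 CPM in WT and 0.459 and 0.742 CPM in KO. It too fell without overlap (log2 -2.20, SE 0.57, adjusted p = 0.0197), but the call was lost with DESeq2 and without any 1 of the 4 libraries (adjusted p from 0.0709 to 0.195). Cox8a, the widely expressed form, measured 243 and 176 CPM in WT and 211 and 217 CPM in KO, with overlapping groups.

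The other restricted forms did not pass. Cox6b2, known from testis, measured 66.1 and 140.2 CPM in WT and 57.1 and 87.3 CPM in KO. Cox7a1, the heart and muscle form of subunit VIIa, measured 18.8 and 21.1 CPM in WT and 21.1 and 28.04 CPM in KO. Cox7b2 did not exceed 2.52 CPM in any library. Ndufa4l2, a relative of Ndufa4 known to be induced by low oxygen, measured 4.96 and 8.63 CPM in WT and 5.96 and 6.52 CPM in KO. The groups overlapped for Cox6b2 and Ndufa4l2, and narrowly for Cox7a1. The partners Cox6b1, Cox7a2, Cox7b and Ndufa4 had log2 fold changes of 0.17, 0.08, -0.20 and -0.26, with adjusted p-values of 0.742 to 0.889, and none passed.

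**Figure D2:**
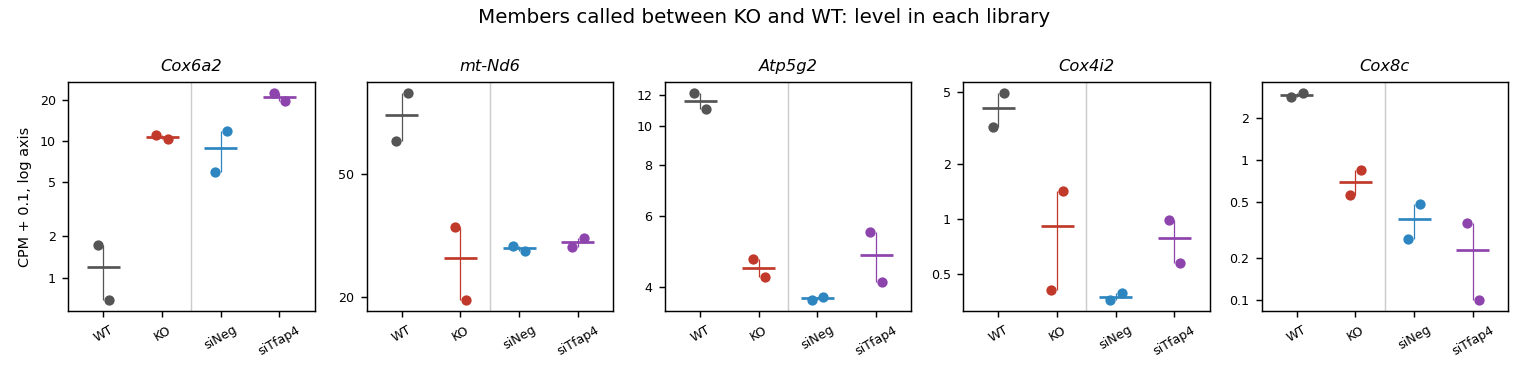
CPM plus 0.1 on a log axis of the 5 subunits called in KO against WT, in each library of the 4 groups; points are libraries, the horizontal bar is the mean and the vertical line the range of the 2 duplicates. The KO points of Cox6a2 lie above the WT points and those of Cox4i2, Cox8c, Atp5g2 and mt-Nd6 below.

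In complex V, Atp5g2 was the called member. Atp5g1, Atp5g2 and Atp5g3 encode the same mature c subunit, the ring that turns in the membrane, behind different import signals. Atp5g2 measured 12.0 and 10.95 CPM in WT and 4.59 and 4.12 CPM in KO, with no overlap. It fell (log2 -1.40, SE 0.33, adjusted p = 0.0132), but the call was lost without KO replicate 1, KO replicate 2 or WT replicate 1 (adjusted p up to 0.132). Atp5g1 measured 189 and 243 CPM in WT and 223 and 221 CPM in KO (log2 0.04, adjusted p = 0.947). The other 16 nuclear subunits of complex V that were tested did not pass.

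Of the mitochondrial members, mt-Nd6 was called. It encodes a membrane subunit of complex I and is the sole protein gene on the light strand of the mitochondrial genome (chrM:13552-14070, minus strand), where it overlaps the end of mt-Nd5 on the other strand. It measured 64.0 and 91.9 CPM in WT and 33.8 and 19.5 CPM in KO, and in the siPOOL set 29.2 and 28.2 CPM in siNeg and 28.9 and 31.1 CPM in siTfap4. The WT values lay above the KO values. Its fall was 2.92-fold (log2 -1.55, SE 0.29, adjusted p = 0.00267), and without KO replicate 2 the call was lost (adjusted p = 0.0701). The strand setting of the counting is not given in the sources used here. If strand was ignored, reads in the stretch that both genes cover (chrM:13552-13565) cannot be assigned to mt-Nd6 or mt-Nd5. Reads from the 2 strands over the rest of mt-Nd6 would then be counted together. Most tested tRNA entries of the mitochondrial genome, given at the end, were called lower in KO as well. How mt-Nd6 and these entries come to be counted in libraries primed on poly(A) was not tested.

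The 7 tested protein genes of the heavy strand had no call by edgeR in KO against WT, since mt-Nd6 was the 1 mitochondrial member called by edgeR, called by DESeq2 or at an unadjusted p under 0.05, and their median log2 fold change was -0.28. The complex I subunit mt-Nd1 measured 13601 and 13012 CPM in WT and 11017 and 10749 CPM in KO. The levels of mt-Nd2 were 4738 and 5842 CPM against 3474 and 3026 CPM (log2 -0.70, SE 0.38, adjusted p = 0.294). Both had lower values in the KO libraries without passing. The member with the highest CPM, mt-Nd4, measured 16225 and 16093 CPM in WT and 17219 and 16095 CPM in KO, and mt-Nd5 888 and 922 CPM against 735 and 676 CPM. The cytochrome b gene mt-Cytb measured 9649 and 7515 CPM in WT and 10324 and 9155 CPM in KO. For mt-Co1, the catalytic subunit of complex IV, the values were 1310 and 1578 CPM in WT and 1236 and 1138 CPM in KO, while mt-Nd3 stayed at or below 1.30 CPM in every library. Among these, mt-Nd4 and mt-Cytb overlapped between groups, and mt-Nd5 and mt-Co1 were lower in both KO libraries.

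**Figure D3:**
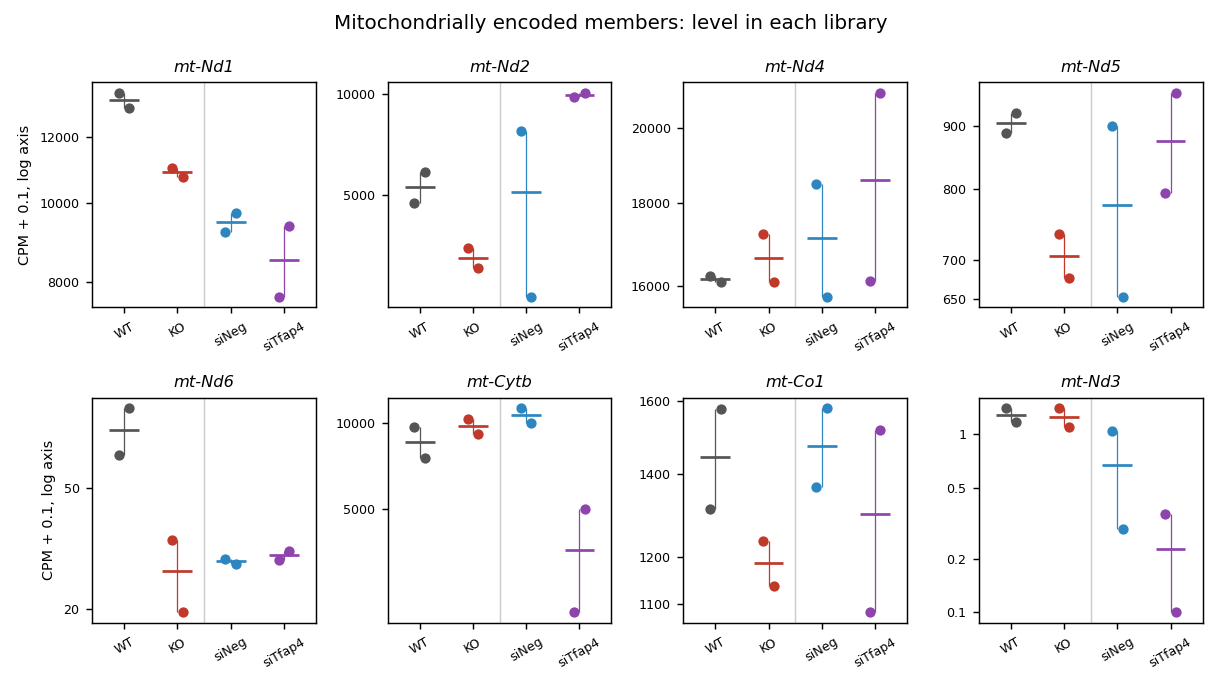
CPM plus 0.1 on a log axis of the 8 tested protein genes of the mitochondrial genome in each library; points are libraries, the horizontal bar is the mean and the vertical line the range of the 2 duplicates. The WT points of mt-Nd6 lie above the KO points, and the siTfap4 points of mt-Cytb, at 2176 and 5006, lie below the siNeg points.

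The cluster's microRNAs pair with messenger RNAs through bases 2 to 8, so the members' 3′ untranslated regions were searched for the complement of these bases. The 3p microRNAs used are shown because their seeds define the search, and no 3p form of miR-292 was among them. The seed is in capitals (RefSeq, GRCm38.p6), and miR-291a, miR-294 and miR-295 share 1 seed.
mmu-miR-291a-3p: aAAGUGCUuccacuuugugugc
mmu-miR-294-3p: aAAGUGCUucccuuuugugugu
mmu-miR-295-3p: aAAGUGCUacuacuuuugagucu
mmu-miR-290a-3p: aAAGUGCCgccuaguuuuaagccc
mmu-miR-291b-3p: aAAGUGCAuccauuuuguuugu
mmu-miR-293-3p: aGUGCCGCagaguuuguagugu

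The site AGCACTT on the transcript strand pairs with the shared seed, the site GGCACTT with that of miR-290a, the site TGCACTT with that of miR-291b and the site GCGGCAC with that of miR-293. A match was found in 9 of 86 nuclear members tested (10.5%), beside 4247 of 12773 tested genes with an annotated 3′ untranslated region (33.3%). The members' regions are short: their median length was 202 bases, beside 1156 over those genes. The 9 members were Atp5g1, Cox6b2, Cycs, Ndufa10, Ndufa12, Ndufb2, Ndufb8, Ndufs4 and Sdhd. None of the 9 was called in KO against WT by edgeR, where their smallest adjusted p was 0.334, and their median log2 fold change was -0.07, beside 0.03 in the 77 members without a match. Over all genes the median was 0.07 with a match (328 higher, 120 lower) and -0.04 without (491 higher, 397 lower). Cycs had 3 matches, the most of any member. The stretch around the first match in Cycs and the matches in Sdhd and Ndufs4 are shown as examples that carry the shared miR-291a, miR-294 and miR-295 site, in capitals, on the transcript strand.
Cycs: tcagaggcAGCACTTtgtgacaa
Sdhd: ctgggtgcAGCACTTtgattgtg
Ndufs4: gaaatcagAGCACTTagagttta

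Ndufs4, an accessory subunit needed for a stable complex I, had a log2 fold change of 0.27 (SE 0.25, adjusted p = 0.574). A match of letters does not show that a site is bound.

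Lowering Tfap4 in KO cells was compared with the negative control siPOOL. More members were called here: 20 of 94 (21.3%), 8 higher and 12 lower, beside 15.4% of all genes tested (4.36% higher, 11.1% lower). Each complex had at least 1 subunit that fell. The falls were the larger changes, from log2 -0.88 to -4.35, while the rises lay between 0.77 and 1.27. The median log2 fold change was 0.20 over nuclear members, -0.04 over mitochondrial members and 0.01 over all genes. The nuclear median was -0.07 without siNeg replicate 1, 0.43 without siNeg replicate 2 and 0.08 without siTfap4 replicate 2. With all libraries and the GC correction described below it was -0.04, so its direction was not stable. In 50 of the 94 members the groups did not overlap, beside 58.3% of all genes, and the 20 called members were among the 50.

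In complex IV the fall of Cox7c was the largest of any member. Cox7c encodes a small membrane subunit (chr13:86044816-86046904, minus strand). It measured 1203 and 1097 CPM in siNeg and 31.98 and 80.6 CPM in siTfap4. Both siTfap4 libraries lay far below both siNeg libraries. The fall was 20.4-fold (log2 -4.35, SE 0.36, adjusted p = 3.62e-06) and passed under all 11 alternative settings, with a log2 fold change of -5.18 without siTfap4 replicate 2. The end of Cox7c is shared in full with Gm10012, Gm12338 and Gm11930, so the counts of this gene depend on how shared reads were treated. Cox7b, another small subunit, measured 333 and 397 CPM in siNeg and 80.0 and 219 CPM in siTfap4, and fell (log2 -1.29, SE 0.35, adjusted p = 0.0227). The call of Cox7b was lost in 5 of the 11 settings: with no filter on low counts, with the GC correction given below, and without siTfap4 replicate 1, siNeg replicate 1 or siNeg replicate 2 (adjusted p up to 0.147).

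In complex I, Ndufb3 and Ndufa1 are accessory subunits of the membrane arm. Ndufb3 (chr1:58586384-58595964, plus strand) measured 236 and 229.9 CPM in siNeg and 18.9 and 46.4 CPM in siTfap4, and fell 7.13-fold (log2 -2.83, SE 0.33, adjusted p = 5.45e-05). Ndufa1 (chrX:37187588-37191163, minus strand) measured 97.1 and 79.4 CPM in siNeg and 9.30 and 23.6 CPM in siTfap4, a fall of 5.34-fold (log2 -2.42, SE 0.33, adjusted p = 0.000186). Ndufa4, named as a complex I subunit and since assigned to complex IV, measured 97.4 and 123 CPM in siNeg and 7.26 and 35.7 CPM in siTfap4. It fell as well (log2 -2.35, SE 0.49, adjusted p = 0.00821), but not with no filter on low counts (adjusted p = 0.139) or on the 4 libraries alone (0.0883). Its log2 fold change was -1.63 without siTfap4 replicate 1 and -3.93 without siTfap4 replicate 2. For all 3 genes the siTfap4 values lay under the siNeg values, with replicate 1 the lower of the siTfap4 duplicates.

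Complex II and complex III each had 1 called nuclear member. Sdhc, a membrane anchor that helps bind ubiquinone (chr1:171127165-171150603, minus strand), measured 146 and 167 CPM in siNeg and 23.6 and 48.4 CPM in siTfap4, and fell 4.34-fold (log2 -2.12, SE 0.29, adjusted p = 0.000199). Uqcrfs1, the Rieske iron-sulfur protein of complex III (chr13:30540308-30545362, minus strand), measured 144 and 156 CPM in siNeg and 36.6 and 55.8 CPM in siTfap4, and fell 3.25-fold (log2 -1.70, SE 0.26, adjusted p = 0.000419). The groups of both genes were apart.

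Sdhd, the other membrane anchor of complex II, measured 14.9 and 0.871 CPM in siNeg and 0.127 and 0.944 CPM in siTfap4. The siNeg duplicates were far apart, and siNeg replicate 2 lay between the siTfap4 values. The difference did not pass (log2 -3.84, SE 1.22, adjusted p = 0.0570), although DESeq2 called it (adjusted p = 0.0386). Without siNeg replicate 2 it passed in edgeR (adjusted p = 0.000314), and without siNeg replicate 1 the log2 fold change was -0.67.

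In complex V, Atp5j, Atp5s, Atp5g3 and Atp5b fell. Atp5j, the F6 subunit of the peripheral stalk (chr16:84827866-84835625, minus strand, overlapping Gabpa on the other strand), measured 157 and 194 CPM in siNeg and 12.0 and 36.7 CPM in siTfap4, a fall of 7.18-fold (log2 -2.84, SE 0.38, adjusted p = 0.000280). Atp5s, known as coupling factor B, measured 7.28 and 4.84 CPM in siNeg and 0.637 and 0.944 CPM in siTfap4 (log2 -2.92, SE 0.55, adjusted p = 0.00225). The c subunit gene Atp5g3, the nuclear complex V member with the highest mean CPM, measured 1035 and 1571 CPM against 357 and 776 CPM (log2 -1.20, SE 0.31, adjusted p = 0.0174). Atp5b, the catalytic beta subunit, had the smallest called fall, from 846 and 993 CPM to 364 and 634 CPM (log2 -0.88, SE 0.26, adjusted p = 0.0311). All 4 were lower in both siTfap4 libraries. The call of Atp5j held in every alternative setting, while that of Atp5b was lost in 5 of 11, with adjusted p-values up to 0.276 when siTfap4 replicate 1, siNeg replicate 1 or siNeg replicate 2 was left out. The call of Atp5g3 was lost without siTfap4 replicate 1 (adjusted p = 0.185) or siNeg replicate 2 (0.116), and that of Atp5s without siTfap4 replicate 1 (0.0594). Of the other c subunit genes, Atp5g1 measured 214 and 306 CPM in siNeg and 401 and 364 CPM in siTfap4 and Atp5g2 3.599 and 3.68 CPM against 5.35 and 4.01 CPM, neither of which passed.

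The mitochondrial member called was mt-Cytb, which encodes the cytochrome b core of complex III (chrM:14145-15288, plus strand). It measured 11281 and 9982 CPM in siNeg and 2176 and 5006 CPM in siTfap4, and both siTfap4 libraries lay below both siNeg libraries. It fell 2.96-fold (log2 -1.57, SE 0.32, adjusted p = 0.00454), and without siNeg replicate 1 the call was lost narrowly (adjusted p = 0.0504). The other tested protein genes of the mitochondrial genome were not called. For mt-Nd1 the values were 9215 and 9702 CPM in siNeg and 7676 and 9358 CPM in siTfap4, for mt-Nd4 18489 and 15759 CPM and 16132 and 21014 CPM, and for mt-Co1 1365 and 1581 CPM and 1083 and 1517 CPM. The groups of these 3 genes overlapped. The siNeg duplicates of mt-Nd2 stood apart, at 7733 and 2485 CPM, with 9785 and 10095 CPM in siTfap4 (log2 0.96, SE 0.38, adjusted p = 0.104), and mt-Nd5 measured 900.4 and 653 CPM against 793 and 958 CPM.

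**Figure D4:**
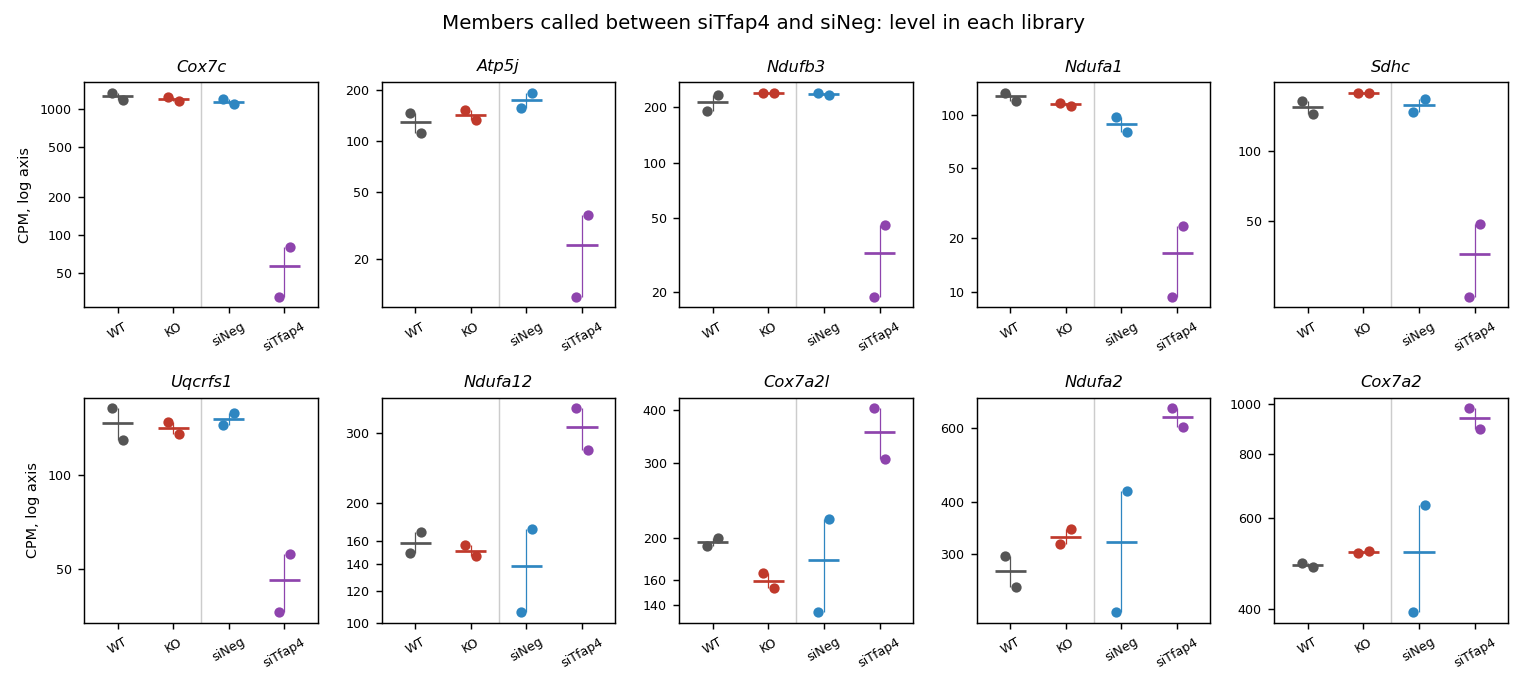
CPM on a log axis of 6 subunits that fell and 4 that rose in siTfap4 against siNeg, in each library of the 4 groups; points are libraries, the horizontal bar is the mean and the vertical line the range of the 2 duplicates. The siTfap4 points of Cox7c, at 31.98 and 80.6, lie below the siNeg points, while those of Ndufa12, at 346 and 272, lie above them.

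The 8 members that rose were 4 of complex I (Ndufa12, Ndufa2, Ndufb2 and Ndufa5), 3 of complex IV (Cox6a2, Cox7a2l and Cox7a2) and Atp5k of complex V. Ndufa12, an accessory subunit of complex I, measured 106 and 171 CPM in siNeg and 346 and 272 CPM in siTfap4 (log2 1.16, SE 0.26, adjusted p = 0.00706). Cox7a2l, which helps join complexes III and IV into supercomplexes, measured 134 and 223 CPM against 404 and 307 CPM (log2 1.00, SE 0.26, adjusted p = 0.0172). Cox7a2, the widely expressed form of subunit VIIa, measured 394 and 638 CPM against 985 and 897 CPM (log2 0.87, SE 0.25, adjusted p = 0.0268). In each of the 3 the groups were apart, siNeg replicate 1 was the lowest value and siTfap4 replicate 1 the highest.

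Atp5k, subunit e of the ATP synthase dimer, rose from 354 and 655 CPM to 1048 and 891 CPM (log2 0.94, SE 0.27, adjusted p = 0.0272). Ndufa2 rose from 218 and 425 CPM to 670 and 602 CPM (log2 0.98, SE 0.28, adjusted p = 0.0253), Ndufb2 from 53.0 and 97.7 CPM to 133 and 141 CPM (log2 0.86, SE 0.27, adjusted p = 0.0404) and Ndufa5 from 144 and 211 CPM to 351 and 257 CPM (log2 0.77, SE 0.25, adjusted p = 0.0450). Ndufa2 and Ndufb2 overlap other annotated genes, Tmco6 on the other strand for the first and Braf on the other strand and Gm42420 on the same strand for the second. Cox6a2, which was higher in KO than in WT, rose again, from 5.83 and 11.7 CPM to 22.6 and 19.6 CPM (log2 1.27, SE 0.36, adjusted p = 0.0264).

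Several abundant subunits and isoforms did not pass in siTfap4 against siNeg. Sdhb measured 164 and 265 CPM in siNeg and 285 and 327 CPM in siTfap4, and Cycs 20.99 and 28.4 CPM against 34.02 and 35.5 CPM. Cox4i1 measured 426 and 759 CPM against 819 and 922 CPM, Cox6a1 385 and 530 CPM against 570 and 596 CPM, and Cox6b2 53.4 and 43.3 CPM against 86.1 and 68.1 CPM. All 5 were higher in both siTfap4 libraries, with log2 fold changes from 0.35 to 0.67 and adjusted p-values of 0.162 to 0.314. Uqcrq measured 434 and 805 CPM against 516 and 862 CPM, and its groups overlapped, as did those of Ndufa4l2, Cox7a1, Cox6b1 and Cox8a.

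The calls of the 8 rises were lost without siTfap4 replicate 1 and without siNeg replicate 1. Without siTfap4 replicate 1, 0 of the 8 rises and 8 of the 12 falls were called, and all genes called numbered 522 in place of 2334. The log2 fold changes of the 8 then lay between 0.52 (Ndufa5) and 1.16 (Cox6a2), and that of Ndufb2 was 0.89, beside 0.86 with all libraries. Without siNeg replicate 1, 0 of the 8 rises and 9 of the 12 falls were called, all genes called numbered 762, and the log2 fold changes of the 8 lay between 0.47 (Ndufb2) and 0.83 (Ndufa12 and Cox6a2). Without siNeg replicate 2, all 8 rises and 9 of the 12 falls were kept. Passing in all 11 alternative settings were 6 members, which were Cox7c, Ndufb3, Ndufa1, Sdhc, Uqcrfs1 and Atp5j. Without siTfap4 replicate 2 several falls were larger by over 1.5 times in fold, with log2 fold changes of -3.89 for Atp5j, -3.64 for Ndufb3, -3.26 for Ndufa1, -2.74 for Sdhc, -2.30 for mt-Cytb, -2.20 for Cox7b and -1.88 for Atp5g3.

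The falls were more frequent among members whose 3′ ends are rich in A and T. Of 28 nuclear members with under 35% GC in the last 100 transcript bases, 10 fell and 3 rose in siTfap4 against siNeg. Of 24 members between 35% and 45%, 0 fell and 2 rose, and of 34 at 45% or more, 1 fell and 3 rose. Over all genes the shares called lower were 19.3%, 6.61% and 3.77% in these bins, and the shares called higher 1.03%, 4.38% and 9.56%. Sdhc, at 50% GC, was the member that fell in the upper bin. Across the 86 nuclear members, GC and the log2 fold change had a Pearson correlation of 0.48, beside 0.35 across 15126 genes, given as a description since genes of the same libraries are not independent. In KO against WT it was -0.14 over the members and -0.02 over all genes. The difference between the siNeg duplicates (replicate 2 minus replicate 1) correlated with GC at 0.30 over the members and 0.29 over all genes, and that between the siTfap4 duplicates at -0.51 and -0.14. For the duplicates of KO the values were 0.39 over the members and 0.04 over all genes, and for those of WT 0.22 and 0.08.

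When the counts were fitted with a correction for this GC content, 18 of 94 members were called (7 higher, 11 lower), beside 12.1% of all genes (4.04% higher, 8.11% lower), and the median over nuclear members was -0.04. Of the members called without it, 10 of the 12 falls and 5 of the 8 rises were kept. Cox7c (log2 -3.89), Atp5j (-2.59), Sdhc (-2.44), Atp5s (-2.39), Ndufb3 (-2.32), Ndufa4 (-2.10), Ndufa1 (-2.09), mt-Cytb (-1.34), Uqcrfs1 (-1.33) and Atp5g3 (-1.02) stayed lower. Cox7b and Atp5b did not pass (adjusted p = 0.0518 and 0.0974, edgeR), nor did Cox7a2l, Atp5k and Ndufa5 among the rises (0.0567, 0.109 and 0.201). Cox6a2 and Ndufb2, both with under 35% GC, rose by more (log2 1.79 and 1.30). Atp5g1 and mt-Nd5 were called higher and Atp5h lower with the correction alone.

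**Figure D5:**
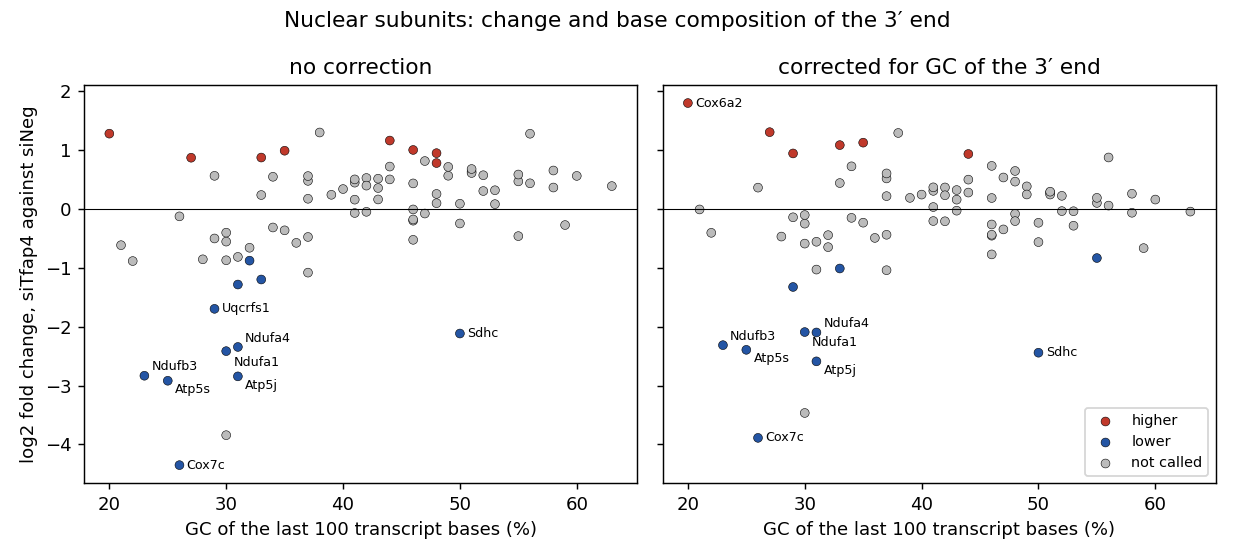
Log2 fold change of the 86 nuclear subunits in siTfap4 against siNeg (vertical axis) against the GC percent of the last 100 transcript bases (horizontal axis), without (left) and with (right) the correction for GC; each point is a subunit, coloured by call. Most called falls lie under 35% GC on both sides, with Sdhc at 50%.

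TFAP4 binds the E-box CAGCTG, so the promoters of the members (250 bases before to 50 after the start, RefSeq, GRCm38.p6) were searched for it and for a pair of other motifs, with 75 promoters matched for 70 nuclear members. On either strand, CAGCTG was in 8.0% of the members' promoters, beside 16.3% of all 32851 promoters. The E-box of MYC, CACGTG, which CAGCTG does not overlap, was in 9.33% of the members' and 7.15% of all promoters. The ETS motif ACTTCCG, known from many respiratory chain promoters, was in 13.3%, beside 6.42%. Of the members called in siTfap4 that were matched, 1 of 10 that fell and 0 of 6 that rose held CAGCTG.

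The promoter of that gene, Atp5b (chr10:128083057-128083356, plus strand), is shown with CAGCTG in capitals, beside that of Cox7c (chr13:86046746-86047045, minus strand), whose transcript fell the most and whose window holds none of the 3 motifs.
Atp5b: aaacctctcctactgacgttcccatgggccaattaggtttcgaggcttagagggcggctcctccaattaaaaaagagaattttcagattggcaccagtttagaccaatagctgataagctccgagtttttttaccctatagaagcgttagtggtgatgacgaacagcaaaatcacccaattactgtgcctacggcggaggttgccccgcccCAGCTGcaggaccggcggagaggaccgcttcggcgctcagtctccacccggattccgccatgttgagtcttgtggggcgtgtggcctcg
Cox7c: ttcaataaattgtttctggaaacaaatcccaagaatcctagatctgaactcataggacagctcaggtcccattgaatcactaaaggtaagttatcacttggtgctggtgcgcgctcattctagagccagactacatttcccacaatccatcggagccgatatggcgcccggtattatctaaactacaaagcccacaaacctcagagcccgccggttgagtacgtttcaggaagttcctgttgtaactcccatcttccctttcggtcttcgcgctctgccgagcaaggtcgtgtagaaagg

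A motif in these windows is a description, and its absence says only that these letters are not there.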

How the data were processed

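The deposited table holds raw counts per gene, whole numbers not normalized by the authors. Per the submitters' processing notes, QuantSeq 3′ reads were trimmed with Trim Galore and the build was GRCm38. How reads were aligned and counted (the programs, strand, reads that fit several genes, the authors' annotation) is not given in the sources used here. Symbols, positions and transcript ends were taken from GENCODE M21, which matched 55154 of 55421 genes. The members and the lists below were chosen with earlier results of these data known.

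The filter on low counts (filterByExpr) kept 15137 genes, and TMM gave the scaling. All 8 libraries entered a robust quasi-likelihood model of edgeR 4.0.16 (with limma 3.58.1, R 4.3.3) with a mean for each of the 4 groups and 4 residual degrees of freedom. Benjamini-Hochberg adjustment ran over all genes tested and the threshold was an adjusted p of 0.05, and every adjusted p in the text comes from this fit unless another is named. CPM was computed here from the counts. GC was taken from the last 100 bases of a gene's longest transcript, and the GC correction is a lowess curve per library (span 0.3) used as an offset. Group sums were compared with an exact two-sided permutation test.

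Other lists were assembly factors, mitochondrial DNA and RNA, the mitochondrial ribosome, regulators of mitochondrial biogenesis and the citric acid cycle. Named members were all those called, the mitochondrial protein genes, the member of each complex with the highest CPM, and isoform pairs. From each other list up to 3 called genes with the smallest adjusted p were named. Alternatives were DESeq2 1.42.0, no filter on low counts, scaling without the mitochondrial genome, the 4 libraries of a comparison alone, the replicate number as a block, the GC correction, both together, and the omission of single libraries. The fit was also run on simulated counts drawn from its own estimates of spread. These counts held no GC effect and no distortion of single libraries, so the run does not bear on either. Duplicates differed beyond counting error in every group. The p-values of the main fit set a difference against the spread between duplicates, estimated over all 4 groups together. The siPOOL duplicates thus enter the tests of KO against WT. Intervals of counts were not used, and 3 counts were taken as the limit that a count of 0 allows, for counting error only.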

Additional observations from a re-analysis of the deposited data

How the results depend on the processing

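No member called in either comparison reversed its direction under any alternative run. Fitted on the 4 libraries of a comparison alone, 9 members were called in KO against WT in place of 5, and 13 in siTfap4 against siNeg in place of 20. All genes called in these fits numbered 1861 in place of 1506, and 1793 in place of 2334. With each library left out in turn, the members called numbered 2 to 3 in KO against WT and 8 to 34 in siTfap4 against siNeg, where 8 were left without siTfap4 replicate 1, 10 without siNeg replicate 1 and 34 without siNeg replicate 2. All genes called then numbered 629 to 880 in place of 1506, and 522 to 2961 in place of 2334. The median of the nuclear members in KO against WT moved from 0.02 to between -0.0080 and 0.056, and that in siTfap4 against siNeg from 0.20 to between -0.07 and 0.43. A group reduced to 1 library is assumed to vary like the others. With the replicate number as a block, 5 and 26 members were called, beside 1337 and 2064 of all genes. With the block and the GC correction together, 6 and 24 members were called, beside 1733 and 2207 of all genes. The labels do not tie equal numbers to a shared culture (a title tag of unstated meaning is shared by WT replicate 1 and KO replicate 2), and differences between duplicates correlated across genes at -0.06 in WT and KO and 0.13 in the siPOOL set, so the numbers are not taken to pair the libraries. DESeq2 called 4 and 26 members, beside 1393 and 2705 of all genes. With 2 libraries a group and at most 12726123 counts in each, small differences can go undetected.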

Other observations

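The genes around the chain were counted in the same fit, with the shares called over all genes, 9.95% in KO against WT and 15.4% in siTfap4 against siNeg, as background. In siTfap4 against siNeg 4.36% of all genes were called higher and 11.1% lower (4.04% and 8.11% with the GC correction). Of 46 tested assembly factors, 3 were called in KO against WT. Tmem126b, which helps build the membrane arm of complex I, rose (log2 0.99, SE 0.26, adjusted p = 0.0239), as did Cox20, which handles a complex IV subunit (0.90, SE 0.27, adjusted p = 0.0449), and Ecsit, also of complex I assembly, fell (-0.90, SE 0.27, adjusted p = 0.0433). In siTfap4 against siNeg, 1 rose and 11 fell (26.1% called), and 0 and 7 with the GC correction. Cox17, a copper carrier for complex IV, fell from 89.5 and 58.5 CPM to 2.17 and 4.84 CPM (log2 -4.38, SE 0.37), Cox15, of heme A synthesis, from 60.6 and 40.1 CPM to 3.95 and 11.4 CPM (-2.70, SE 0.38), and Timmdc1, of complex I assembly, from 27.8 and 26.6 CPM to 6.63 and 11.2 CPM (-1.60, SE 0.30).

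Of 25 genes of mitochondrial DNA and RNA, Tefm, the elongation factor of mitochondrial transcription, was the call in KO against WT. It measured 11.3 and 13.8 CPM in WT, 39.9 and 28.8 CPM in KO, 33.4 and 24.5 CPM in siNeg and 4.46 and 5.19 CPM in siTfap4, so that it rose in KO (log2 1.46, SE 0.29, adjusted p = 0.00425) and fell with siTfap4 (-2.58, SE 0.33, adjusted p = 0.000120). With siTfap4 0 rose and 4 of this list fell (16% called), and 1 and 3 with the GC correction. Among the 4 falls were Slirp (-1.18, SE 0.30), which stabilises mitochondrial messenger RNAs, and Tfam (-1.03, SE 0.27), which packages mitochondrial DNA. Of 77 mitochondrial ribosomal proteins, 0 were called in KO against WT by edgeR, with 4 at an unadjusted p under 0.05 and 0 called by DESeq2, and Mrpl15, the most abundant, had a log2 fold change of 0.02. With siTfap4, 4 rose and 10 fell (18.2% called), and 2 and 10 with the GC correction. By adjusted p the first were Mrps21 (-4.20, SE 0.49), Mrpl44 (-1.87, SE 0.27) and Mrpl27 (-2.47, SE 0.37). The largest fitted fall was that of Mrps28, chosen after its values were seen, at 9.94 and 1.65 CPM in siNeg and 0 and 0.118 CPM in siTfap4.

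Of 12 regulators tested, 0 were called in KO against WT by edgeR, 0 at an unadjusted p under 0.05 and 0 by DESeq2, and Esrrb measured 327 and 286 CPM in WT and 362 and 379 CPM in KO. With siTfap4 the nuclear receptor Esrra (-1.62, SE 0.41, adjusted p = 0.0157) and Pprc1 (-0.78, SE 0.24, adjusted p = 0.0357) fell (16.7% called). With the GC correction 0 rose and 3 fell. Of 25 genes of the citric acid cycle and pyruvate entry, Idh2 rose (1.04, SE 0.31, adjusted p = 0.0408) and Suclg2 fell (-1.37, SE 0.38, adjusted p = 0.0316) in KO. With siTfap4 2 rose and 7 fell (36% called), and 3 and 6 with the GC correction. Among the 7 falls were fumarase, Fh1, from 102 and 76.3 CPM to 4.97 and 11.4 CPM (-3.43, SE 0.34), Suclg2 (-2.98, SE 0.52) and citrate synthase, Cs (-1.32, SE 0.26).

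Other transcripts of the mitochondrial genome were looked at after the values of mt-Nd6 were seen. In KO against WT, 7 of 9 tested tRNA entries on the heavy-strand side (plus) were called lower. On the minus side 3 of 4 were called lower, beside 3.96% of all genes tested. All 13 tested tRNA entries had a negative log2 fold change, with medians of -1.59 (plus) and -1.10 (minus). The small ribosomal RNA, mt-Rnr1, was called lower as well (-1.07, SE 0.29, adjusted p = 0.0283). The tRNA entry mt-Tm measured 61.3 and 65.2 CPM in WT and 17.5 and 35.1 CPM in KO. In siTfap4 against siNeg, 0 of the 13 tested tRNA entries were called by edgeR (smallest adjusted p = 0.0552, for mt-Tc) and mt-Rnr1 was higher (1.04, SE 0.29, adjusted p = 0.0258). For mt-Rnr2 the difference did not pass (0.29, SE 0.27, adjusted p = 0.482). How these entries come to be counted in libraries primed on poly(A) was not tested.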
